A study of Rattus norvegicus with 18 samples.

Results

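The collagen chain genes of rat cortical neuroglial cultures were examined in a model of glutamate excitotoxicity, the injury of neurons by excess glutamate. Members were all genes whose symbol consists of Col, a type number, the letter a and a chain number. The rule found 44 of the 31463 genes listed for every library, and 30 of them had enough counts to be tested. The 18 libraries comprised 6 groups of 3, each named as in the labels and numbered by replicate. Control cultures received no treatment named in the labels, and the Glutamate cultures were exposed to 100 µM glutamate. Memantine cultures received memantine, a blocker of NMDA-type glutamate receptors, at 100 µM together with 100 µM glutamate, as the positive control of the model. Glutamate_vesicles cultures were given extracellular vesicles of glial progenitor cells the day before the same 100 µM glutamate. Glutamate_secret and Glutamate_BPC cultures were given the other secreted preparations of these cells, a protein fraction and the whole secretome, likewise the day before 100 µM glutamate. The labels do not say which name stands for which of them. All cultures were at day 10 in vitro, and RNA was isolated after 4 h in medium that followed the end of the glutamate exposure. According to the methods of the study, the cells came from the cortex of newborn Wistar rats after removal of the vascular membranes. They were grown in supplemented Neurobasal medium and were treated with cytosine arabinoside against dividing glia. The methods say in general that experiments were repeated on cultures from unrelated cells, and they do not tie the replicate numbers of these libraries to a culture or a day. The p-values measure the spread between these libraries, which may in part be technical.

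Collagens are secreted proteins made of α-chains wound into helical trimers, and each chain has its own gene. Fibrillar chains build the banded fibrils of connective tissue, whereas type IV chains form the sheet-like network of basement membranes, which in the brain line blood vessels and the pial surface. FACIT chains (fibril-associated collagens with interrupted helices) attach to fibrils, type VI chains form beaded filaments, the multiplexins carry glycan chains and sit in basement membrane zones, and several collagens are transmembrane proteins of neurons and other cells. Brain parenchyma holds little fibrillar collagen, and fibroblasts, vascular cells and astrocytes are among the known sources of collagen in nervous tissue.

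The libraries held between 8409574 and 17206354 counts. Ribosomal RNA took from 3.04% to 43.0% of the counts, and the highest share was in Control 1, whose scaled library size was 3502364 against 5524289 to 24924518 in the other 17. Levels below are CPM, the counts of a gene relative to its library's size after TMM scaling (the trimmed mean of M values, which allows for differing composition), and 3 counts correspond to 0.12 to 0.857 CPM. Levels are compared between libraries for 1 gene or for 1 set of genes, and not between genes per molecule, because longer transcripts give more reads and transcript lengths were not used here. Memantine 3 stood apart from its group in the neuron markers, whose summed level was 654 CPM there and 3330 and 2310 CPM in Memantine 1 and 2. The Control libraries had 2100 to 2800 CPM of these markers and the Glutamate libraries 600.0 to 1130 CPM.

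Collagen counts were dominated by a few chains. The 44 genes together held 68289 counts over all libraries. Col5a3, a chain of the fibril-regulating type V collagen, held 20.6% of them, and the FACIT chain Col16a1 held 18.5%. Col4a1 and Col4a2, the major chains of the basement membrane network, held 10.8% and 8.05%, and Col11a1, a chain of the fibril-nucleating type XI collagen, held 6.08%. These 5 chains made up 64.0% of the collagen counts. Col1a1, Col1a2 and Col3a1, which build the abundant type I and III fibrils of connective tissue, held 1.07%, 0.824% and 0.268%.

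The 14 chains below the count filter had between 3 and 88 counts over all 18 libraries, and none exceeded 16 counts in any of them. They were the cartilage chain Col2a1, the chains Col4a3 and Col4a4 of specialised basement membranes, the beaded-filament relatives Col6a4, Col6a5 and Col28a1, the anchoring-fibril chain Col7a1, the short-chain network formers Col8a1, Col8a2 and Col10a1, the transmembrane chains Col13a1 and Col17a1, the multiplexin Col15a1 and the fibrillar chain Col24a1. Col8a1 had 9 counts in all. Col15a1, whose product lies at the outer face of vascular basement membranes, had 75. Of the chain classes, 9 of 11 fibrillar, 4 of 6 basement membrane, 4 of 7 beaded-filament, 9 of 9 FACIT, 1 of 2 multiplexin and 2 of 4 transmembrane chains passed the filter, as did Col26a1, which is assigned to no class here.

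**Figure D1:**
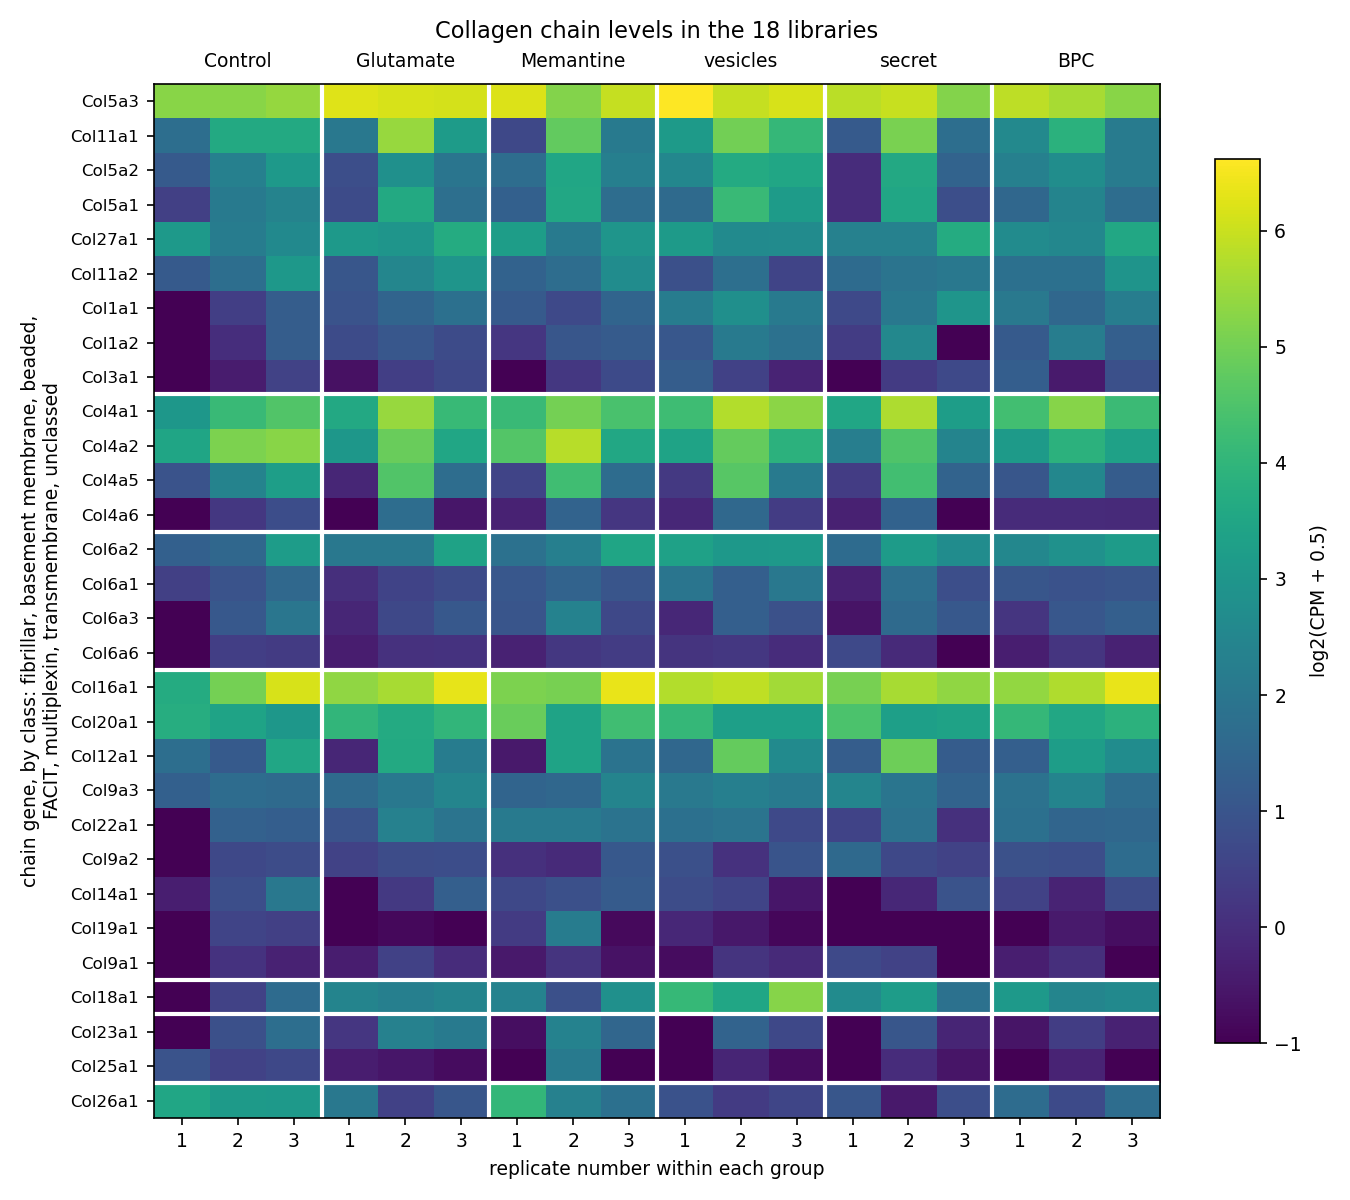
Level of the 30 tested chains (rows, grouped by class) in the 18 libraries (columns, grouped by treatment and numbered by replicate), as log2 of CPM plus 0.5. Col5a3 and Col16a1 were high in every library, the vesicle libraries stood out for Col18a1, and many rows were brighter in replicate 2 than in replicates 1 and 3 of the same group.

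Markers of the vascular and connective cells that make collagen were near 0 for some genes and clearly counted for others. Among 10 fibroblast markers, Dcn and Lum, which are defining genes, reached at most 1.09 and 0.724 CPM in any library, and Dpt, Slc6a13 and Aldh1a2 at most 0.217, 0.181 and 0.115 CPM. Igf2, Crabp2, Islr and Ogn reached 6.68, 6.66, 3.11 and 2.0 CPM. The summed level of the list was between 24.8 and 324 CPM because it includes Pdgfra, which also marks oligodendrocyte progenitors and ranged from 21.1 to 320.0 CPM. Among 9 mural markers, Rgs5 stayed at or below 0.111 CPM and Acta2 at or below 0.796 CPM, whereas Tagln, which other cells also express, reached 808 CPM. Notch3 reached 55.9 CPM, Pdgfrb ranged from 1.63 to 9.60 CPM and Myh11 reached 5.28 CPM, and Vtn, Kcnj8 and Abcc9 stayed at or below 1.63 CPM. Of the 8 astrocyte markers, whose sum was between 3210 and 13100 CPM, Gfap alone had 1280 to 9940 CPM. The 7 endothelial markers in the files summed to 2.29 to 8.47 CPM. In these bulk libraries, fewer cells of a type and less RNA per cell cannot be told apart.

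The design sets glutamate against Control and each added treatment against glutamate alone, and the chain classes were compared along the same lines. The summed collagen level was 201 ± 85.7 CPM (SD, n = 3) for Control, 273 ± 79.1 for Glutamate and 269 ± 31.0 for Memantine. It was 322 ± 56.4 CPM for Glutamate_vesicles, 225 ± 111 for Glutamate_secret and 231 ± 22.7 for Glutamate_BPC. Every pair of groups overlapped except Glutamate_vesicles, from 277 to 385 CPM, and Glutamate_BPC, from 205 to 248 CPM. As sums over chosen members, these levels and the shares that follow are given without a test.

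Fibrillar chains took 36.1% ± 7.64 of the collagen counts in Control (SD, n = 3), 43.8% ± 5.21 in Glutamate and 35% ± 3.84 in Memantine. The shares were 41.7% ± 5.26 with vesicles (Glutamate_vesicles), 40.8% ± 2.17 for Glutamate_secret and 36.5% ± 5.32 for Glutamate_BPC. The Control libraries alone spread from 29.6% to 44.5%, which covers all of the group means. The Control 1 share of 44.5% rested on 418 collagen counts and had a 95% Wilson interval from 39.8% to 49.3%, which covers counting error only. Basement membrane chains took 23.7% ± 6.05 in Control, 16.4% ± 10.1 in Glutamate and 22.5% ± 12.3 in Memantine. They took 19.3% ± 8.5 in the vesicle group, 15.8% ± 9.59 for Glutamate_secret and 16.8% ± 5.54 for Glutamate_BPC. The shares of both classes overlapped between every pair of groups. The summed fibrillar level did not, with 53.1 to 85.8 CPM in Control. It was 95.1 to 150 CPM in Glutamate, 90.5 to 96.3 in Memantine and 122 to 144 in Glutamate_vesicles, all above Control. Glutamate_secret (67.2 to 136 CPM) and Glutamate_BPC (75.1 to 89.3 CPM) overlapped Control. Glutamate_vesicles also lay above Memantine, and Glutamate_BPC lay below Glutamate, Memantine and Glutamate_vesicles. The summed basement membrane level overlapped between all groups.

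FACIT chains took more than the basement membrane chains in every group mean, from 26.6% in Glutamate_vesicles to 37.7% in Glutamate_BPC, where their mean was also above the fibrillar one, and the beaded-filament chains had means from 3.30% to 4.59%. The multiplexin share, which is nearly all Col18a1, was 0.516% ± 0.510 in Control and 7.10% ± 4.83 in Glutamate_vesicles. Every vesicle library, from 2.93% to 12.4%, lay above every Control library, from 0.0% to 1.02%. So did every library of Glutamate (1.33% to 2.69%), Glutamate_secret (1.94% to 3.56%) and Glutamate_BPC (2.37% to 3.98%), whereas Memantine (0.483% to 2.61%) overlapped Control.

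**Figure D2:**
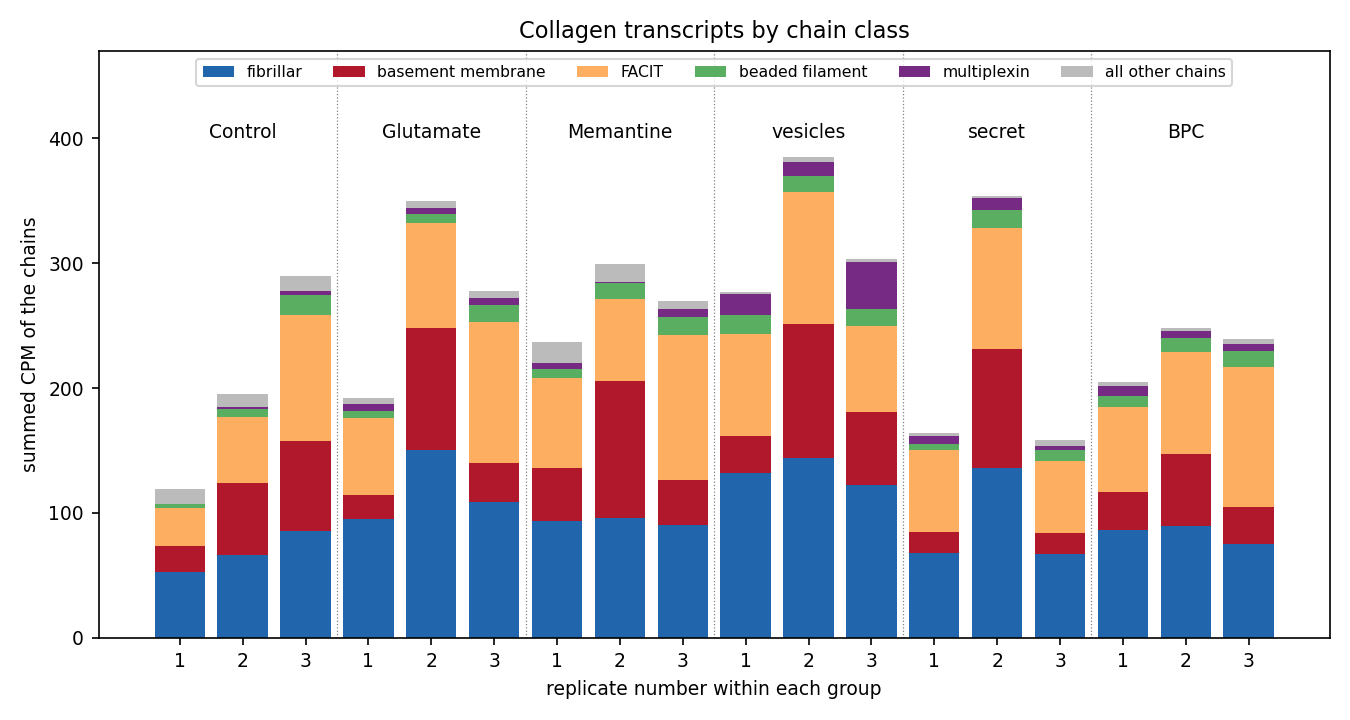
Summed CPM of the chains of each class (stacked bars from 0) in the 18 libraries, numbered by replicate within each group. Totals ran from 119 CPM in Control 1 to 385 CPM in Glutamate_vesicles 2, and the basement membrane segment was taller in replicate 2 than in replicate 1 of every group.

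Across chains, none of the 30 passed an adjusted p below 0.05 in any of the 9 pairwise comparisons or in the test of any difference among the 6 groups (edgeR quasi-likelihood test, Benjamini-Hochberg adjustment over 14398 genes). Over all tested genes the called share was 0.0% in 8 of the pairwise comparisons, 0.0139% for Glutamate_vesicles against Control and 0.00695% for the 6-group test. The comparisons reuse the Control and Glutamate libraries and are therefore not independent. The smallest adjusted p of a chain was 0.134, for Col26a1 in Glutamate_secret against Control.

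Other fits called more chains and more of all genes. The study's own kind of test, the likelihood-ratio test of edgeR, called 2 chains for Glutamate_vesicles against Control, beside 1.11% of all genes, 1 for Glutamate_secret against Control, beside 1.55%, and 3 in the 6-group test, beside 4.08%. DESeq2 called 4, 1 and 3 chains in these comparisons, beside 3.28%, 3.0% and 4.45% of the genes to which it gave an adjusted p. With the replicate number as a block 3, 2 and 2 chains were called, beside 3.74%, 4.86% and 3.45%, and Col26a1 alone was called for Glutamate and for Glutamate_BPC against Control, beside 1.15% and 1.74%. With the log2 ribosomal RNA share as a covariate 2 chains were called in each of the 3 comparisons, beside 0.396%, 4.04% and 2.67%. Col26a1 was among the chains called by all 4 fits in these 3 comparisons, and Col18a1 was among them for Glutamate_vesicles against Control and in the 6-group test.

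At an unadjusted p below 0.05, Glutamate against Control had 2 chains higher and 2 lower, or 4 of 30, beside 8.11% of all genes, of which 2.13% were higher and 5.97% lower. Memantine against Glutamate had 2 chains, beside 5.08% of all genes, and Glutamate_vesicles against Glutamate had 2, beside 1.08%. Glutamate_secret against Glutamate and Glutamate_BPC against Glutamate had 0 chains each, beside 0.681% and 1.07%, and Memantine against Control had 0, beside 1.12%. Against Control, Glutamate_vesicles had 4 chains, beside 11.6% of all genes, Glutamate_secret had 4, beside 11.8%, and Glutamate_BPC had 3, beside 11.3%. The 6-group test had 3 chains, beside 7.75%.

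The median log2 difference of the tested chains was 0.54 in Glutamate against Control, where that of all tested genes was 0.09. For Glutamate_vesicles against Control it was 0.73, beside 0.04 for all genes, and for Glutamate_BPC against Control 0.05, beside −0.06. Memantine and Glutamate_secret against Control gave 0.398 and 0.341, beside 0.105 and 0.061. Single libraries moved these medians. For Glutamate against Control it ran from −0.051 without Glutamate 2 to 0.926 without Control 3. For Glutamate_vesicles against Control it ran from 0.347 without Glutamate_vesicles 2 to 1.04 without Control 3, and it was 0.346 with the replicate number as a block. The medians of the remaining groups against Control changed sign. Glutamate_secret ran from −0.992 without Glutamate_secret 2 to 0.632 without Control 3, and gave −0.026 with the block. Memantine ran from −0.059 without Memantine 2 to 0.903 without Control 3. Glutamate_BPC ran from −0.321 without Control 1 to 0.397 without Control 3. Within the classes, the fibrillar median was 0.68 and the basement membrane median 0.55 in Glutamate against Control, and 1.07 and 0.82 in Glutamate_vesicles against Control. Glutamate_BPC against Control gave medians of 0.30 for the 9 fibrillar and −0.76 for the 4 basement membrane chains. These medians describe the lists and no difference between classes was tested.

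The largest difference from Control among the vesicle libraries was that of Col18a1, a heparan sulphate-carrying multiplexin of basement membranes whose C-terminal fragment is endostatin. Its level was 0.0, 0.932 and 2.69 CPM in Control 1 to 3 and 16.6, 10.9 and 37.2 CPM in the vesicle libraries, so that the groups were far apart. The log2 difference was 4.00 ± 0.84 (SE), with an adjusted p of 0.161 by edgeR's quasi-likelihood test. Same-numbered libraries of these 2 groups were taken as paired from correlations in these same data (0.21 to 0.60), and not from the labels. With the replicate number as a block the difference was 3.93, with an adjusted p of 0.0224 by the same test. This blocked fit estimated 1 set of replicate effects over all 18 libraries and was not a paired test of these 2 groups. It is an alternative to the main fit and no separate support. Leaving out Control 3 gave 5.14, and leaving out Glutamate_vesicles 3 gave 3.36, with adjusted p values of 0.145 and 0.700.

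Col18a1 was also higher in the vesicle libraries than in the Glutamate libraries, which had 4.91, 4.38 and 4.96 CPM. That log2 difference was 2.18 ± 0.77 (SE), with an adjusted p of 1 and an unadjusted p of 0.0124 by edgeR. In the remaining groups Col18a1 ranged from 1.33 to 6.61 CPM in Memantine, from 3.08 to 8.71 CPM in Glutamate_secret and from 5.07 to 7.97 CPM in Glutamate_BPC, and all of these values lay below the lowest vesicle library. Within the order of means, Control was lowest at 1.21 ± 1.37 CPM (SD, n = 3) and Glutamate_vesicles highest at 21.5 ± 13.8 CPM, while the other 4 means, from 4.22 to 6.23 CPM, did not differ beyond their spread. Their log2 differences from Control were 1.82 ± 0.78 (SE) for Glutamate, 1.65 ± 0.78 for Memantine, 2.14 ± 0.79 for Glutamate_secret and 2.21 ± 0.79 for Glutamate_BPC. The edgeR adjusted p values were 0.551 for Glutamate, 0.293 for Glutamate_secret and 0.319 for Glutamate_BPC, and Memantine was not called either. The summed oligodendrocyte lineage markers moved in the same direction, with 378 to 665 CPM in Control and 881 to 1400 CPM in Glutamate_vesicles. The mural list did so as well, with 74.5 to 185 CPM and 329 to 677 CPM, most of it Tagln. Of the 5 mural markers tested, 1 (Tagln) was higher at an unadjusted p below 0.05, beside 3.99% of all genes. The mural sum was also 396 to 816 CPM in Glutamate_secret and 308 to 617 CPM in Glutamate_BPC, where Col18a1 stayed below every vesicle library. The summed fibroblast markers had means of 71.7 ± 40.7 CPM for Control, 114 ± 126 CPM for Glutamate and 193 ± 129 CPM for Glutamate_vesicles (SD, n = 3). Of its 5 tested genes, 2 (Igf2 and Crabp2) were higher in Glutamate_vesicles at an unadjusted p below 0.05, both against Control and against Glutamate, where 0.479% of all genes were higher and 0.597% lower. Igf2 had a log2 difference of 3.05 ± 0.90 (SE) from Control and Crabp2 of 1.91 ± 0.63, with edgeR adjusted p values of 0.215 and 0.238. Igf2 was 0.344 to 0.857 CPM in Control and 6.68, 0.401 and 5.01 CPM in the vesicle libraries, of which the second overlapped Control. Crabp2 was 0.857 to 1.13 CPM and 2.09, 2.81 and 6.66 CPM, without overlap. In the Glutamate_secret libraries, Crabp2 was likewise 6.46, 3.05 and 3.08 CPM. The other tested markers of the list overlapped between Control and the vesicle libraries. Islr had 0.0 to 1.29 and 0.321 to 0.698 CPM, Ogn 0.294 to 2.0 and 0.0 to 0.401 CPM, and Pdgfra 21.1 to 93.2 and 47.5 to 310 CPM. Dcn and Lum were at most 0.0401 and 0.0486 CPM in the vesicle libraries. The part of these markers in the Col18a1 difference was not tested.

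Upstream sequence is shown for Col18a1 and for Col26a1, the chains with the smallest p values across the 6 groups, from the RefSeq promoter table of the build GRCr8, which is not the build rn6 of the deposited values. Of the 44 members, 35 had an entry. Capitals mark the GC box GGGCGG on either strand, the site to which Sp-family factors bind. The 250 bases before the start of Col18a1, chr20:11473395-11473644 on the plus strand, held 3 of them and read 5′ to 3′ as follows.
Col18a1 upstream: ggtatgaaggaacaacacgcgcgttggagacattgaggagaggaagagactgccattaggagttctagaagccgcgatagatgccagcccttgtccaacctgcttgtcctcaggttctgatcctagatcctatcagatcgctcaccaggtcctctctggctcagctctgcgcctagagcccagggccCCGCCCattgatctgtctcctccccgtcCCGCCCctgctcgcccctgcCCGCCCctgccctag
Col26a1 upstream: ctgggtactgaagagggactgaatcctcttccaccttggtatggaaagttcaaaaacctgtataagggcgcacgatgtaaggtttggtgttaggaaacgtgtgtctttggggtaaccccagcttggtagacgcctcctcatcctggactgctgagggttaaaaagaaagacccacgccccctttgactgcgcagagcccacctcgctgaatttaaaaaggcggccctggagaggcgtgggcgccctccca
The Col26a1 window, chr12:25429146-25429395 on the plus strand, held no match to these letters. Of 33469 rat promoters, 30.5% held a GC box in the same 250 bases. The CCAAT box (letters CCAAT), the TATA box (letters TATAAA) and the AP-1 site (letters TGANTCA), searched on both strands, matched neither window and occurred in 34.0%, 12.9% and 6.34% of promoters. Bases were GC in 60.4% of the Col18a1 and 54.0% of the Col26a1 window, beside a median of 51.2%.

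Col26a1, a secreted collagen known from developing gonads and grouped with the emilin-like proteins, went the opposite way. Control libraries had 10.8, 8.34 and 8.24 CPM, and Glutamate libraries 3.62, 0.889 and 1.56 CPM, with no overlap. The log2 difference of Glutamate against Control was −2.19 ± 0.76 (SE), with an adjusted p of 0.386 by edgeR. The secreted preparations gave levels in the Glutamate range or below, namely 1.40, 0.762 and 1.02 CPM in Glutamate_vesicles, 1.57, 0.221 and 1.27 CPM in Glutamate_secret and 2.72, 1.15 and 2.82 CPM in Glutamate_BPC.

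Against Control the log2 difference of Col26a1 was −3.11 ± 0.78 (SE) for Glutamate_vesicles, −3.24 ± 0.81 for Glutamate_secret and −2.04 ± 0.75 for Glutamate_BPC. Adjusted p values by edgeR's quasi-likelihood test were 0.182, 0.134 and 0.328. In the blocked fit of all 18 libraries, Glutamate_vesicles against Control gave −3.18, with an adjusted p of 0.0224 by the same test. Memantine libraries had 15.9, 4.61 and 3.02 CPM of Col26a1, and the lowest was Memantine 3. Memantine against Glutamate gave a log2 difference of 1.97 ± 0.75 (SE, edgeR adjusted p of 0.688), which was 0.94 without Memantine 1. Summed neuron markers moved with Col26a1, since they were 2100 to 2800 CPM in Control and 499 to 1130 CPM in the Glutamate group and the 3 groups given secreted preparations. Their part in the Col26a1 difference was not tested.

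Col5a3 had the most counts over all libraries, although Col16a1 had more in Control (2030 against 1684) and in Glutamate_BPC (2115 against 1835). It differed little among the libraries of Control and of Glutamate. Control libraries had 38.0, 37.6 and 42.2 CPM, and Glutamate libraries 76.3, 70.8 and 68.9 CPM. Every Glutamate library was above every Control library. The log2 difference was 0.87 ± 0.31 (SE), with an adjusted p of 0.418 and an unadjusted p of 0.0137 by edgeR, and it ranged from 0.83 to 0.93 when each library was left out. Vesicle libraries had 97.9, 61.8 and 71.7 CPM, which gave 0.97 ± 0.32 against Control with an edgeR adjusted p of 0.233. Memantine libraries spread from 36.3 to 74.1 CPM and Glutamate_secret from 36.4 to 62.1 CPM, and both overlapped the Control range.

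The type I and III chains were scarce. Col1a1 had 0, 17 and 35 counts in Control 1 to 3, or 0.0, 0.834 and 1.89 CPM, and 4.09, 6.42 and 3.84 CPM in the vesicle libraries. The vesicle libraries were all above the Control libraries, with a log2 difference of 2.24 ± 0.78 (SE) and an adjusted p of 0.276 by edgeR. In the blocked fit of all 18 libraries it was 2.46, with an adjusted p of 0.0464 by edgeR. Of the fibroblast markers, Igf2 and Crabp2 were higher in the same comparison, whereas Islr, Ogn and Pdgfra overlapped and Dcn and Lum were near 0, as given for Col18a1. The part of these markers in the Col1a1 difference was not tested. Glutamate_secret had 1.10, 3.63 and 7.42 CPM of Col1a1 and Glutamate_BPC 3.71, 2.42 and 4.23 CPM, which gave log2 differences of 1.99 ± 0.78 and 1.77 ± 0.78 from Control, with edgeR adjusted p values of 0.330 and 0.401. Its trimer partner Col1a2 ranged from 0.0 to 5.44 CPM over all libraries and Col3a1 from 0.0 to 1.90 CPM.

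**Figure D3:**
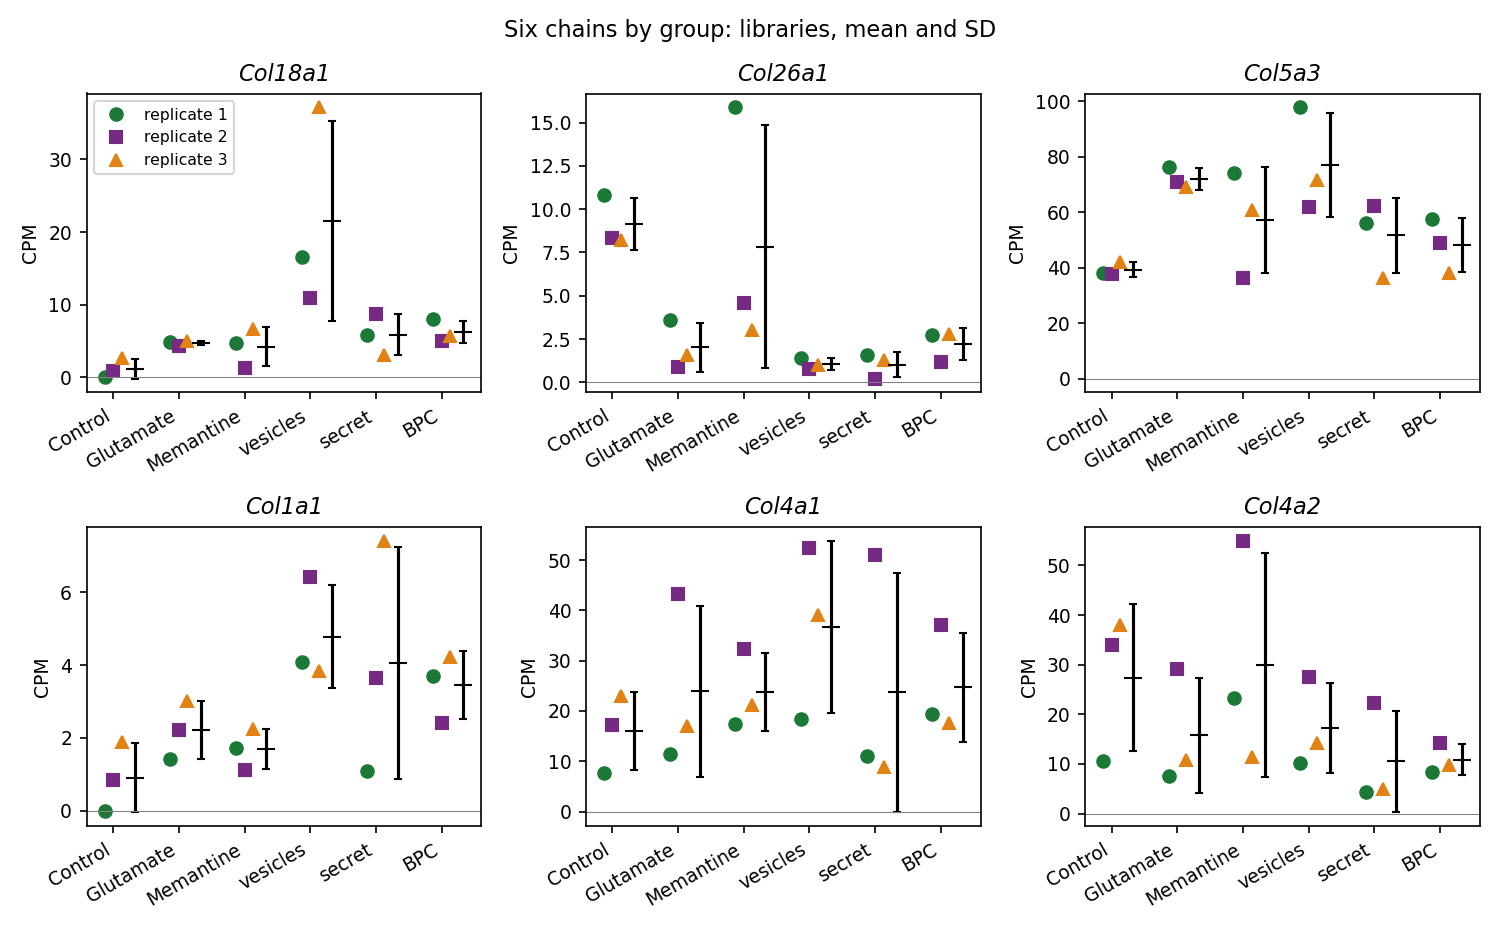
CPM of 6 chains in each library by group, with symbols for the replicate number and the mean with SD (bars, n = 3) at the right of each group. Col18a1 was highest in the 3 vesicle libraries, Col26a1 was 8.24 CPM or more in Control and at most 3.62 CPM in Glutamate, and Col4a1 and Col4a2 had their highest value in replicate 2 in every group but Control.

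Of the remaining tested fibrillar chains, Col11a1, Col5a1 and Col5a2 differed more between replicates 2 and 1 than in any comparison of groups. Col11a2 and Col27a1 did not. Col11a1 had 2.85, 11.8 and 11.9 CPM in Control and 3.62, 43.2 and 8.66 CPM in Glutamate. Col5a1 and Col5a2, the chains that start and limit fibril growth together with type I collagen, ranged from 0.473 to 17.6 CPM and from 0.473 to 12.1 CPM over all libraries. Col27a1, a fibrillar chain of developing cartilage, stayed between 3.83 and 12.4 CPM. In Glutamate against Control the log2 differences were 1.04 ± 1.20 (SE) for Col11a1, 0.69 ± 1.07 for Col5a1, −0.38 ± 0.87 for Col5a2 and 0.67 ± 0.50 for Col27a1, and none passed the test.

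Col4a1 and Col4a2 are transcribed in opposite directions from a shared promoter, and their products join in 1 trimer. The bases between their starts, chr16:84885521-84885596 of GRCr8 (plus strand shown, GC box in capitals), number 76 in the RefSeq table.
Col4a2 to Col4a1 gap: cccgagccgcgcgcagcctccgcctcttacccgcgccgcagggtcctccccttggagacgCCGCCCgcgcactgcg
This stretch was 78.9% GC, beside a median of 53.9% for windows of the same length before all starts. It held 1 GC box, which 18.1% of such windows did, and none of the other motifs.

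The counts of these 2 chains did not keep a constant proportion across groups. Col4a1 had 7.71, 17.3 and 22.9 CPM in Control and 11.5, 43.3 and 17 CPM in Glutamate, and Col4a2 had 10.6, 33.9 and 37.9 CPM and 7.62, 29.1 and 10.8 CPM. Each chain overlapped between the groups, and the log2 differences were 0.58 ± 0.67 (SE) for Col4a1 and −0.80 ± 0.74 for Col4a2, of which neither passed the test.

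The ratio of Col4a2 to Col4a1 counts within a library was far tighter. It was 1.37, 1.96 and 1.66 in Control 1 to 3 and 0.663, 0.672 and 0.634 in Glutamate 1 to 3, with group means of 1.66 ± 0.295 and 0.656 ± 0.0199 (SD, n = 3). It was 0.480 ± 0.101 with vesicles, 0.458 ± 0.0845 for Glutamate_secret and 0.458 ± 0.0855 for Glutamate_BPC. All 12 libraries of the 4 groups whose names include glutamate lay at or below 0.672, and all Control libraries at or above 1.37. Memantine was split, with 1.33 and 1.70 in Memantine 1 and 2 and 0.541 in Memantine 3, the library that also had few neuron marker counts. In Control 1 the ratio rested on 37 and 27 counts and had an exact 95% interval from 0.812 to 2.34. A ratio within a library does not depend on the scaling between libraries. It was chosen after its values were seen and is given without a test.

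**Figure D4:**
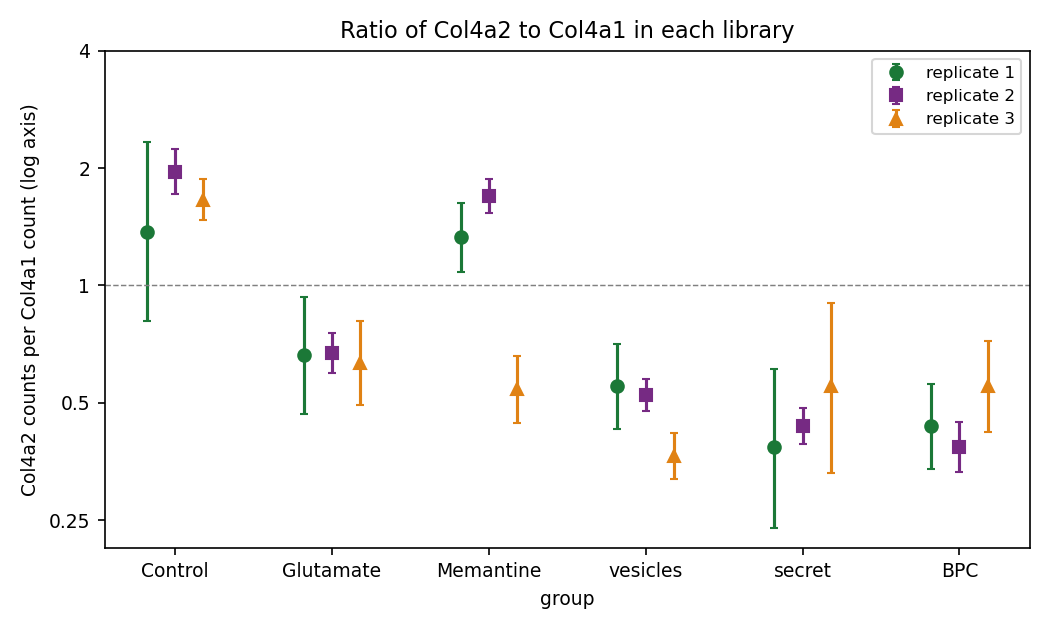
Col4a2 counts per Col4a1 count in each library by group on a log axis, with exact 95% intervals for counting error and a dashed line at equal counts. The 3 Control libraries and Memantine 1 and 2 were above 1, and Memantine 3 and the libraries of the other 4 groups were at 0.672 or below.

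The other pairs of partner chains showed no such separation of Control from all groups with glutamate in the name. The Col6a2 to Col6a1 ratio was 2.53 ± 0.956 (SD, n = 3) in Control and 6.46 ± 2.44 in Glutamate, without overlap, but 3.05 ± 0.933 in Glutamate_vesicles, which overlapped Control. The Col5a2 to Col5a1 ratio had means from 0.945 to 1.62, and every group overlapped Control. Col4a5, a chain of another type IV trimer, ranged from 0.388 to 24.3 CPM and its head-to-head neighbour Col4a6 from 0.0 to 2.79 CPM.

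The beaded-filament chains were lowly expressed. Col6a1 had 0.517, 0.952 and 1.17 CPM in Glutamate and 3.39, 1.97 and 3.65 CPM in Glutamate_vesicles, without overlap, and the log2 difference was 1.75 ± 0.66 (SE) with an adjusted p of 1 and an unadjusted p of 0.0177 by edgeR. Col6a2 ranged from 2.00 to 10.6 CPM and Col6a3 from 0.0 to 4.67 CPM, with log2 differences for the same groups of 0.58 ± 0.64 and 0.26 ± 1.03. All 3 chains join in 1 trimer, and none passed the test.

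Among the FACIT chains, Col16a1 had 12.3, 32.2 and 71.6 CPM in Control and 40.5, 48.7 and 80.9 CPM in Glutamate, so that the groups overlapped widely. Col9a3, a chain of the cartilage type IX collagen, stayed between 2.00 and 5.06 CPM. Col20a1 was between 7.75 and 18.8 CPM in all libraries but Glutamate_secret 1 and Memantine 1, with 21.4 and 29.2 CPM, and Memantine against Control gave a log2 difference of 0.93 ± 0.44 (SE) with an edgeR adjusted p of 1. Col12a1, found on the fibrils of tissues under tension, ranged from 0.215 to 30.2 CPM.

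Col19a1, a FACIT-like chain that is also made by neurons and takes part in synapse formation, was near the detection limit. It had 0, 20 and 16 counts in Control, 0, 1 and 0 in Glutamate, 7, 74 and 1 in Memantine and 0 in all 3 Glutamate_secret libraries. Pooled over the group and corrected for library size, Memantine was 67.2-fold above Glutamate with an exact counting interval from 11.7 to 2690, and 74 of its 82 counts were from Memantine 2. Control was at least 9.75-fold above Glutamate_secret, with 3 counts over the group as the floor. The edgeR adjusted p was 0.611 for the former comparison and 0.25 for the latter.

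Of the tested transmembrane chains, Col25a1, a neuronal collagen needed for motor innervation, had 5, 19 and 20 counts in Control and 2, 3 and 1 in Glutamate. Memantine had 71 counts in Memantine 2 and 0 in the other two. Col23a1 ranged from 0.0 to 4.67 CPM, with 0.646, 4.57 and 3.79 CPM in Glutamate and 0.181, 0.807 and 0.325 CPM in Glutamate_BPC. That log2 difference was −2.72 with an adjusted p of 1 by edgeR.

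More chains differed by replicate number than by treatment. In a test added after the data were seen, of any difference among the 3 replicate numbers beside the group, 17 of 30 chains were called, and 60.4% of all genes were called in the same edgeR quasi-likelihood test. The chains' share was thus close to the background. Of the 17 chains, 14 were higher in replicate 2 than in replicate 1 and 3 were lower, whereas over all genes 31.9% were called and higher and 28.5% called and lower. These directions are the signs of the estimates for replicate 2 against 1, since the call was for all 3 numbers. For replicate 2 against 1 alone, the edgeR adjusted p was 0.342 for Col6a2, 0.209 for Col16a1, 0.111 for Col11a2 and 0.0974 for Col27a1. Col4a5 had 0.388 to 1.54 CPM in the 6 libraries of replicate 1, 4.76 to 24.3 CPM in replicate 2 and 1.84 to 9.21 CPM in replicate 3. Its log2 difference of replicate 2 from 1 was 3.98 ± 0.58 (SE), with an adjusted p of 0.000994 for the 3 numbers by edgeR.

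Col23a1 had a difference of 3.98 ± 0.67, Col12a1 of 3.38 ± 0.65, Col11a1 of 2.97 ± 0.47 and Col5a1 of 2.64 ± 0.44 between replicates 2 and 1. Col26a1 and Col20a1 were among those lower in replicate 2, by −1.44 ± 0.38 and −0.80 ± 0.22. The class shares followed the numbers too. Basement membrane chains took 23.1% to 36.5% of collagen counts in replicate 2, without overlap with the 10.1% to 17.7% in replicate 1, and 10.5% to 24.6% in replicate 3. The ribosomal RNA share was 3.04% to 8.15% in replicate 2, 13.4% to 43.0% in replicate 1 and 6.58% to 26.6% in replicate 3, and with its log2 as a covariate 0 of the 30 chains were called for the replicate number, beside 0.472% of all genes. Whether the replicate number stands for a culture, a day or a preparation is not given in the labels, and the study's methods do not tie it to 1 of them. In its supplement, the study removed a day effect before clustering intact and vesicle-treated cultures without glutamate. For the clustering that included the glutamate groups it used batch-corrected counts. The legends there do not say which library belongs to which day or batch.

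**Figure D5:**
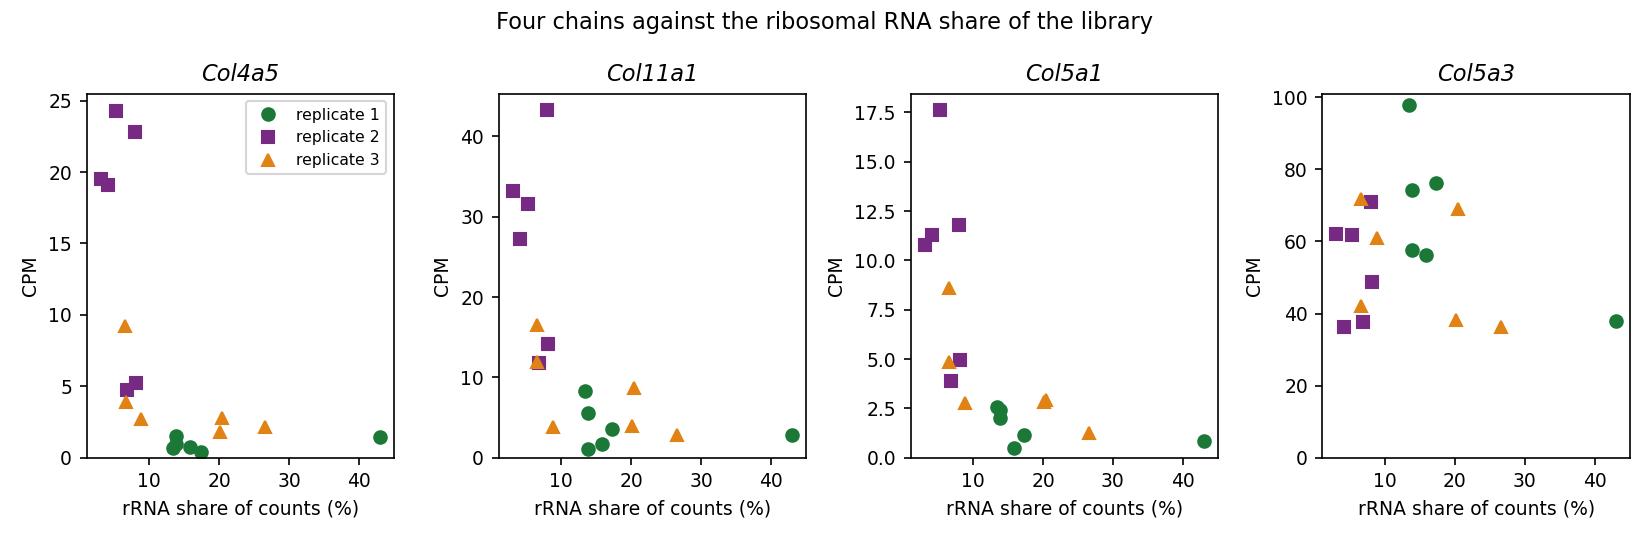
CPM of 4 chains against the ribosomal RNA share of counts in the 18 libraries, with symbols for the replicate number. Col4a5, Col11a1 and Col5a1 were high in libraries of replicate 2, whose ribosomal RNA share was at most 8.15%, whereas Col5a3 was between 36.3 and 97.9 CPM with overlapping replicate numbers.

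Partner chains were compared across the 18 libraries in 6 relations of log2 CPM, with permutation p values adjusted over the 6. Col4a1 and Col4a2 had a Pearson r of 0.64 (permutation p of 0.0045, adjusted 0.012) and a Spearman rho of 0.62 (permutation p of 0.0077, adjusted 0.023), and r was 0.61 without the 2 libraries farthest from the median of Col4a1. Within replicate numbers 1 to 3, r was 0.35, −0.34 and 0.65, with n = 6 each, so the relation did not hold within every number. Centred within group and replicate number, r was 0.7 (permutation p of 0.001, adjusted 0.0061), and at unscaled library sizes it was 0.84 (adjusted 0.00018). The permutation treated all 18 centred values as free, although group and replicate means had been removed, so the centred p values are too small. Col1a1 and Col3a1 had r of 0.68 (permutation p of 0.00096, adjusted 0.0058) and rho of 0.71 (permutation p of 0.0015, adjusted 0.009), with 0.61 without the 2 farthest libraries and 0.69, 0.55 and −0.01 within the numbers.

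Col6a1 and Col6a2 had r of 0.61 (permutation p of 0.0062, adjusted 0.012) and rho of 0.51 (permutation p of 0.032, adjusted 0.052), with 0.52 without 2 libraries and 0.74, 0.59 and −0.05 within the numbers. Col1a1 and Col1a2, partners in 1 trimer, had r of 0.49 (permutation p of 0.051, adjusted 0.077) and rho of 0.50 (permutation p of 0.035, adjusted 0.052), with 0.69 without 2 libraries and 0.97, 0.82 and −0.71 within the numbers. Col1a1 with Col4a1, from different trimers, had r of 0.43 (permutation p of 0.068, adjusted 0.081) and rho of 0.34 (permutation p of 0.16, adjusted 0.16). Col1a1 with Dcn had r of 0.39 (permutation p of 0.11, adjusted 0.11) and rho of 0.37 (permutation p of 0.13, adjusted 0.15), and Dcn was near 0 in all libraries. Without 2 libraries these r values were 0.47 and 0.23, and within the numbers they were 0.92, 0.88 and −0.56, and 0.40, 0.07 and 0.63. Centred within group and replicate number, r was 0.55 for Col1a1 with Col3a1 and 0.57 for Col6a1 with Col6a2 (adjusted permutation p of 0.035 each). It was 0.15 for Col1a1 with Col1a2 and 0.18 with Col4a1 (adjusted 0.54 each), and 0.38 with Dcn (adjusted 0.18). These centred p values are too small for the reason given for Col4a1 with Col4a2, so those of 0.035 are not read as calls.

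Genes that make, process and bind collagen were read from the same tests, and none was called in any comparison. Of 19 genes of prolyl and lysyl hydroxylation and chain folding, 3 were higher and 0 lower at an unadjusted p below 0.05 in Glutamate against Control, and 8, 5 and 8 were higher against Control in Glutamate_vesicles, Glutamate_secret and Glutamate_BPC, with 0 lower. Of all genes 2.13% were higher in the first of these comparisons, and 3.99%, 4.14% and 3.92% were higher and 7.61%, 7.61% and 7.42% lower in the other 3. Crtap, a subunit of the prolyl 3-hydroxylation complex, had the smallest p against Control in the last 3 groups, with log2 differences of 1.5 ± 0.42 (SE), 1.37 ± 0.42 and 1.43 ± 0.42 and edgeR adjusted p values of 0.194, 0.202 and 0.295. In Glutamate against Control it was P4ha1, a catalytic subunit of prolyl 4-hydroxylase, with 0.95 ± 0.31 and an edgeR adjusted p of 0.364. Median log2 differences of the list were 0.63 in Glutamate and 0.86 in Glutamate_vesicles against Control, beside 0.09 and 0.04 for all genes.

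Among 11 basement membrane partners, Lamb1, the laminin β1 chain, had the smallest p in most comparisons. Its log2 difference was −2.19 ± 0.61 (SE) in Glutamate against Control and 2.10 ± 0.61 in Memantine against Glutamate, with edgeR adjusted p values of 0.282 and 0.611. At an unadjusted p below 0.05, 1 of the 11 was lower and 0 higher in the former, and 2 were higher and 0 lower in the latter. Over all genes 5.97% were lower in the former, and 4.88% were higher and 0.201% lower in the latter. Of 6 tested crosslinking genes, 2 were higher in Glutamate_vesicles against Control, beside 3.99% of all genes, where the lysyl oxidase relative Loxl1 had 1.72 ± 0.60 (edgeR adjusted p of 0.276). Of 4 tested collagen receptors 1, the integrin chain Itgb1, was higher there with 1.27 ± 0.58 (edgeR adjusted p of 0.412). Of 5 tested propeptide-processing genes 1, Adamts14, was higher with 2.28 ± 0.97 (edgeR adjusted p of 0.370). These lists are short, so that 1 or 2 genes weigh heavily in their share. Of 5 tested fibril-associated proteoglycans and Sparc, 0 had an unadjusted p below 0.05 there, and 2 were higher in Glutamate_BPC against Control, beside 3.92% of all genes, where biglycan (Bgn) had 2.44 ± 1.02 (edgeR adjusted p of 0.377).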

How the data were processed

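RNA-seq values of 18 libraries were read from 1 gene table per library. The deposited values are expected counts, estimated by the authors per gene. According to the study's methods, reads were trimmed with Trimmomatic and Cutadapt, assigned with Salmon to Ensembl rat transcripts (rn6, with the genome as decoy) and summed to genes with tximport. The submitters' processing notes also name STAR, with no role or version. A strand-specific library is named in the labels, and strand in counting is not stated. The labels and the paper name different sequencing instruments and kits.

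Expected counts were rounded to whole numbers, although the design had been written for counts. The function filterByExpr of edgeR 4.0.16 in R 4.3.3 kept 14398 genes at a minimum count of 10 and a minimum total of 15. TMM scaling was used, and the model held 1 mean for each group across the 18 libraries. The quasi-likelihood test was two-sided with Benjamini-Hochberg adjustment, and an adjusted p below 0.05 was called. SE values come from the quasi-likelihood F statistic, and log2 CPM used a prior count of 2. Correlations used 100000 permutations, and Wilson and exact intervals a level of 95%, with SciPy 1.17.1. Figures were drawn with matplotlib 3.10.9. The test script was checked on simulated data.

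Members, classes and gene lists were chosen with earlier results of these data known. Named chains were 21 fixed ones, any called chain and the 2 of smallest p per comparison, and the other genes were those of smallest p in their list. Col4a6 and the low chains are given only to account for the members. The Col4a2 to Col4a1 ratio and the replicate-number test were added after values were seen. Alternatives were the likelihood-ratio test, DESeq2 1.42.0, other size factors, no filter, the replicate number as a block, the log2 ribosomal RNA share as a covariate, only the compared groups, and each library left out. No column of another sample was present.

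Same-numbered libraries were taken as paired where the correlation of their deviations from the group means was over 0.1 for all 3 numbers, a check on the data and not on the labels. This held for Memantine, Glutamate_secret and Glutamate_BPC against Glutamate (0.57 to 0.89, 0.44 to 0.89 and 0.45 to 0.75) and for Glutamate_vesicles against Control (0.21 to 0.60).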

Additional observations from a re-analysis of the deposited data

How the results depend on the processing

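Under every alternative run, Col26a1 stayed lower than Control in Glutamate and the 3 groups given secreted preparations, and Col18a1 stayed higher in Glutamate_vesicles. With 0 chains called for Glutamate_vesicles against Control, the likelihood-ratio test called 2, DESeq2 4, the replicate block 3 and the ribosomal RNA covariate 2, beside 1.11%, 3.28%, 3.74% and 0.396% of all genes. For Glutamate_secret against Control these were 1, 1, 2 and 2, beside 1.55%, 3.0%, 4.86% and 4.04%, and for the 6-group test 3, 3, 2 and 2, beside 4.08%, 4.45%, 3.45% and 2.67%. The cause was not tested. Leaving out a library gave 0 to 2 chains in the 6-group test (2, Col19a1 and Col26a1, without Memantine 3) and 0 in the pairwise comparisons. The number of chains called for the replicate number was 12 to 17 when a library was left out and 0 with the ribosomal RNA covariate.

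Under the replicate block, where the numbers did not pair the libraries, 1 chain was called for Glutamate against Control (Col26a1, beside 1.15% of all genes), 1 for Glutamate_BPC against Control (Col26a1, beside 1.74%) and 2 for Glutamate_secret against Control (Col4a2 and Col26a1). In the comparisons with Glutamate that were taken as paired, the block changed no call.

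Without the most counted chain of each class, the fibrillar share was 30.5% in Memantine and 42.4% in Glutamate_BPC, and the basement membrane share 35.3% in Control. Leaving out a library moved the fibrillar means to between 31.9% and 46.1% and the basement membrane means to between 10.3% and 27.1%. At unscaled library sizes r was 0.67 for Col1a1 with Col1a2 (adjusted permutation p of 0.0034) and 0.67 with Col4a1 (0.0026). The planned comparison per transcript length was not run. Small counts limit Col1a1, Col3a1, Col19a1 and Col25a1, most of all in Control 1.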
